A study of Mus musculus with 4 samples.

Results

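RNA of 10 genes of H3K9 methylation and heterochromatin was followed in RNA-seq counts from mouse zygotes, which are fertilised eggs that have not yet divided. They were the entries of the deposited gene table named Ehmt1, Ehmt2, Setdb1, Suv39h1, Suv39h2, Cbx1, Cbx3, Cbx5, Trim28 and Zfp57, which are 10 of the 55291 features in the table, and all 10 were found. The rule uses their names and functions, not measured values. There were 4 samples, 1 in each group: zygotes injected with an H3.3 MO, their own control, zygotes injected with H3.3 S31A, and a separate control for these. Unlike the canonical H3 histones, the variant H3.3 can be put on chromatin without DNA replication. MO is not spelled out in the labels; in embryo work it is the common short form of morpholino, an antisense oligonucleotide. The name S31A would stand for an H3.3 in which a serine of the tail is an alanine. The strain, the age of the animals, the doses, the time of collection and what the controls received are not given in the sources used here, and the series' design names a mouse with HA-tagged H3.3B, and the labels do not say whether these zygotes carried the tag.

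Methylation of lysine 9 on histone H3 marks silent chromatin. It is laid down by the enzymes of the SUV39H, EHMT and SETDB families and bound by HP1 proteins, which are encoded by Cbx1, Cbx3 and Cbx5. ZFP57 binds methylated DNA at imprinted regions and recruits TRIM28, a scaffold that brings in SETDB1 and HP1. In the zygote the maternal genome arrives with this mark, while the paternal genome arrives packed with protamines and is rebuilt with maternal histones, H3.3 among them.

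Each sample had 2 count columns, here called libraries 1 and 2, and no source says whether they came from separate pools of embryos. They were therefore not counted as replicates, and differences between groups have no replicate check. Depth ran from 5661621 to 13233371 counts per library, and 11372 to 15156 features were detected and mitochondrially encoded genes took 3.47% to 10.4% of counts. All 15 egg and zygote markers had counts in every library, with a summed level of 11468 to 20021 CPM (counts scaled to a fixed library size). The 12 cumulus and granulosa cell markers summed to 35.1 to 193 CPM, of which Cyp19a1 alone gave 35 to 165 CPM, and Amh, Amhr2, Foxl2, Fshr, Has2, Ptx3 and Tnfaip6 were at 0 in all 8 libraries. The 7 sperm markers summed to at most 6.74 CPM, with Prm1, Tnp1, Tnp2, Akap4 and Smcp at 0 throughout. The H3.3 genes themselves went from 496 to 26.5 CPM (H3f3a) and from 1882 to 5.71 CPM (H3f3b) with MO injection, and from 612 to 563 CPM and from 1653 to 2603 CPM with S31A injection. Between the libraries of 1 sample, 24.2% of genes in the MO control and 39.3% to 40.6% in the other 3 samples were at least 2-fold apart.

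Of the SUV39H pair and of the EHMT pair, 1 gene had counts in every library and the other had few or none in most libraries. Suv39h2 was present in every library, at 78.4 to 201 TPM, a level per length of gene by which genes can be compared, and Suv39h1 was at 0 in 5 of 8 libraries. Suv39h2 thus made up 95.5% to 100.0% of the pair's summed TPM. Ehmt1 was present in all 8 libraries at 10.6 to 33.2 TPM and Ehmt2 in 1 of 8. Ehmt1 was 89.5% to 100.0% of its pair. Setdb1, which belongs to another family, was present in all 8 libraries at 37.4 to 101 TPM.

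Suv39h2 (mm10, chr2:3455815-3475031, minus strand) encodes an enzyme that trimethylates H3K9 in constitutive heterochromatin. Its 2 libraries held 227 and 324 CPM in the MO control, 191 and 232 CPM in the MO-injected sample, 317 and 147 CPM in the S31A control, and 264 and 249 CPM in the S31A-injected sample. In each library its TPM was at or above that of 84.6% to 94.4% of detected features, and the libraries of injected and control samples overlapped in both experiments. Of its exonic bases, 8.10% are shared with Dclre1c on the opposite strand, which had 0 to 416 counts per library. No source used here says whether the counting used strand, so reads from such overlaps cannot be told apart.

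Suv39h1 (chrX:8061171-8074760, minus strand), the other gene of the pair, had 2 and 0 counts in the MO control, 0 and 4 in the MO-injected sample, 0 and 94 in the S31A control, and 0 and 0 in the S31A-injected sample. All but 6 of its 100 counts thus came from library 2 of the S31A control, where its level was 3.68 TPM. A count of 0 in the other libraries allows, with a floor of 3 counts and by counting error alone, at most 0.108 to 0.255 TPM. Zeros were also uneven within samples. Of genes at 10 CPM or more in 1 library of a sample, 0.735% (MO control) to 8.39% (S31A control) were at 0 in the other. A 0 may therefore hide more RNA than this floor. The gene shares 14.6% of its exonic bases with Gm14820, an antisense transcript that had 305 to 1041 counts in every library, or 39.8 to 103 TPM. The overlap covers bases 184 to 783 of the Suv39h1 coding sequence, 48.3% of its 1242 bases, and the stretch at its end is shown because reads from the capitals match both genes. In bases 724 to 843, counted from the first base of the coding sequence (GENCODE M21), the 60 capitals are present in Gm14820 on the opposite strand:
Suv39h1: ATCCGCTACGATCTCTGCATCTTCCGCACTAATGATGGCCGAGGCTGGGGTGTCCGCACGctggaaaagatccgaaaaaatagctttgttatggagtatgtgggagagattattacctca

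Ehmt1 (chr2:24789928-24919614, minus strand) encodes GLP, which with G9a lays down mono- and dimethylation of H3K9. It had 54.6 and 38.8 CPM in the MO control and 69.8 and 34.3 CPM in the MO-injected sample. In the S31A experiment it had 95.5 and 47.6 CPM in the control and 117 and 122 CPM in the injected sample. Both S31A-injected libraries lay above both of their control, and the MO libraries overlapped. Ehmt2 (chr17:34898469-34914052, plus strand), which encodes G9a, had 25 counts in library 2 of the MO-injected sample, or 1.25 TPM, and 0 in the other 7 libraries. By counting error alone, those zeros allow at most 0.104 to 0.245 TPM. No annotated exon of another gene overlaps Ehmt2, and no copy of its coding sequence was found. Its coding sequence and that of Ehmt1 were 68.0% identical over the aligned bases, and those of Suv39h1 and Suv39h2 were 65.5% identical.

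Setdb1 (chr3:95323525-95357202, minus strand) encodes the enzyme that TRIM28 recruits to trimethylate H3K9. It had 154 and 227 CPM in the MO control, 104 and 162 CPM in the MO-injected sample, 242 and 279 CPM in the S31A control, and 303 and 197 CPM in the S31A-injected sample. Injected and control libraries overlapped in both experiments. All 8 libraries held more Setdb1 than Ehmt1 per length, and the ranges of the 2 genes did not overlap.

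**Figure D1:**
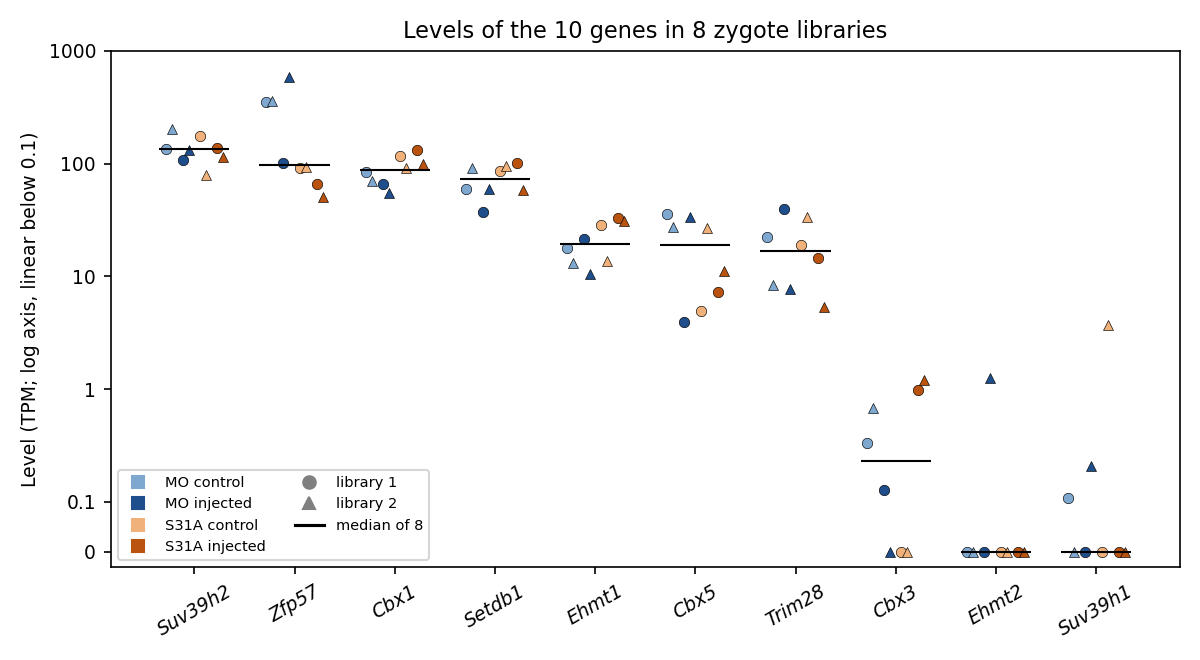
Level of each gene in each of the 8 libraries, in TPM on a log axis that is linear below 0.1, with circles for library 1, triangles for library 2, colours for the 4 samples and a black line at the median of 8. Suv39h2, Zfp57, Cbx1 and Setdb1 have medians of 72.5 to 134 TPM, and Cbx3, Ehmt2 and Suv39h1 lie at or near 0.

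Among the HP1 genes, Cbx1 was the main RNA. Cbx1, which encodes HP1 beta, made up 62.0% to 96.0% of the summed TPM of the 3 genes, with a median of 83.2%. Cbx5 (HP1 alpha) made up 4.0% to 38% and Cbx3 (HP1 gamma) 0% to 1.08%. The coding sequences of the 3 genes were 72.2% to 72.6% identical over the aligned bases.

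Cbx1 (chr11:96789127-96808640, plus strand) had 135 and 111 CPM in the MO control, 113 and 93.9 CPM in the MO-injected sample, 206 and 167 CPM in the S31A control, and 245 and 207 CPM in the S31A-injected sample. All 4 libraries of the S31A experiment lay above all 4 of the MO experiment. Cbx1 has a processed pseudogene, Gm7128 (chr8:15877664-15878196, plus strand), which is 92.8% identical to its coding sequence. Gm7128 had 149 to 681 counts per library, or 124 to 250 TPM, above the TPM of Cbx1 in every library. This order comes from length, 533 exonic bases against 4273 for Cbx1. In counts Cbx1 was the higher in every library, at 673 to 2873. Bases 121 to 240 of the coding sequence and the same stretch of Gm7128 are shown because reads here differ at only 4 positions. These are in capitals: A128G, C150T, C172G and C202G, with the base of Cbx1 first, positions counted from the first base of the coding sequence and the base of Gm7128 last. No source used here says how reads that match more than 1 place were treated, so the division between Cbx1 and Gm7128 is uncertain.
Cbx1: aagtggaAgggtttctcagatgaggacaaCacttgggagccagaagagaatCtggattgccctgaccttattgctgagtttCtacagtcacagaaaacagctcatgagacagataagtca
Gm7128: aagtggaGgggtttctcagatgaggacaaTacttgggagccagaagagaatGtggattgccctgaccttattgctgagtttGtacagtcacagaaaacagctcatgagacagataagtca

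Cbx3 (chr6:51470360-51483704, plus strand) had 7 and 9 counts in the MO control, 4 and 0 in the MO-injected sample, 0 and 0 in the S31A control, and 30 and 33 in the S31A-injected sample. Its highest level was 1.20 TPM. The sequence of Cbx3 is repeated in the genome: 22 annotated transcripts matched its coding sequence at 85% identity or more over at least 80% of its length, and 17 of them were at 0 in all 8 libraries. Only Gm49164 reached 50 counts in a library. It is a lincRNA (chr14:73728568-73956061, plus strand) with 120 to 601 counts per library. Its antisense strand matches 96.6% of the 552 bases of the Cbx3 coding sequence at 99.8% identity. The pseudogene Cbx3-ps6 (chr14:73955000-73955551, minus strand), which had 0 counts in every library, lies with 96.4% of its bases inside exons of Gm49164. The shared stretch is 32.3% of the exonic bases of Gm49164. Cbx3-ps6 differs from Cbx3 by 1 base, A390G, and Cbx3-ps7 (chr1:58646688-58647239, plus strand), also at 0 counts, by A390G and C399T. Bases 331 to 450 of the Cbx3 coding sequence are shown with both pseudogenes, since outside the capitals a read here matches all of them equally:
Cbx3: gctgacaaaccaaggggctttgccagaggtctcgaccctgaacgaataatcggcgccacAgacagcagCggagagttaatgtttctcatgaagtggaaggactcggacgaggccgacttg
Cbx3-ps6: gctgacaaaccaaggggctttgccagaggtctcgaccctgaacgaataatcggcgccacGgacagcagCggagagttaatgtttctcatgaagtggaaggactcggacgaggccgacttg
Cbx3-ps7: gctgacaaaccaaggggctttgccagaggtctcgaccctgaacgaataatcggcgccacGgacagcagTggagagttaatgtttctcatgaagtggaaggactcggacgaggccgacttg

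Cbx5 (chr15:103191544-103239816, minus strand) differed widely between libraries of the same sample. It had 123 and 90.1 CPM in the MO control, 14.2 and 121 CPM in the MO-injected sample, 18.1 and 103 CPM in the S31A control, and 28.4 and 49.3 CPM in the S31A-injected sample. The libraries of the MO-injected sample were 8.57-fold apart and those of the S31A control 5.66-fold. Injected and control libraries overlapped in both experiments.

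**Figure D2:**
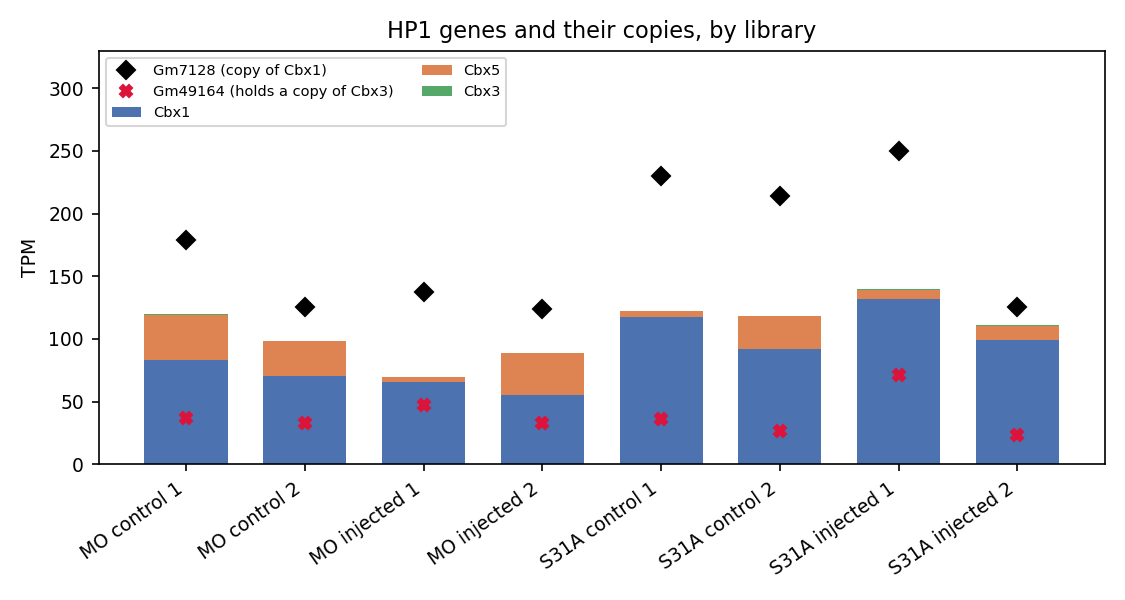
Stacked bars give the TPM of Cbx1, Cbx5 and Cbx3 in each library, black diamonds the pseudogene Gm7128 (a copy of Cbx1) and red crosses Gm49164 (which holds a copy of Cbx3). Cbx1 is 62.0% to 96.0% of each bar, Cbx3 is at most 1.08%, and the diamonds lie above the Cbx1 part in all 8 libraries.

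Of the silencers, Zfp57 was the more abundant RNA, at 2.56 to 76.6 times the TPM of Trim28. Zfp57 (chr17:37001163-37010635, plus strand), a maternal-effect gene that keeps imprints in the early embryo, had 503 and 498 CPM in the MO control, 155 and 890 CPM in the MO-injected sample, 143 and 150 CPM in the S31A control, and 109 and 92.9 CPM in the S31A-injected sample. Both MO control libraries lay between the MO-injected ones. Every S31A library lay below every MO library. Trim28 (chr7:12999114-13031035, plus strand) had 34.99 and 12.8 CPM in the MO control, 66.5 and 12.8 CPM in the MO-injected sample, 32.2 and 59.96 CPM in the S31A control, and 26.5 and 10.9 CPM in the S31A-injected sample. Its libraries were 5.21-fold apart in the MO-injected sample.

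**Figure D3:**
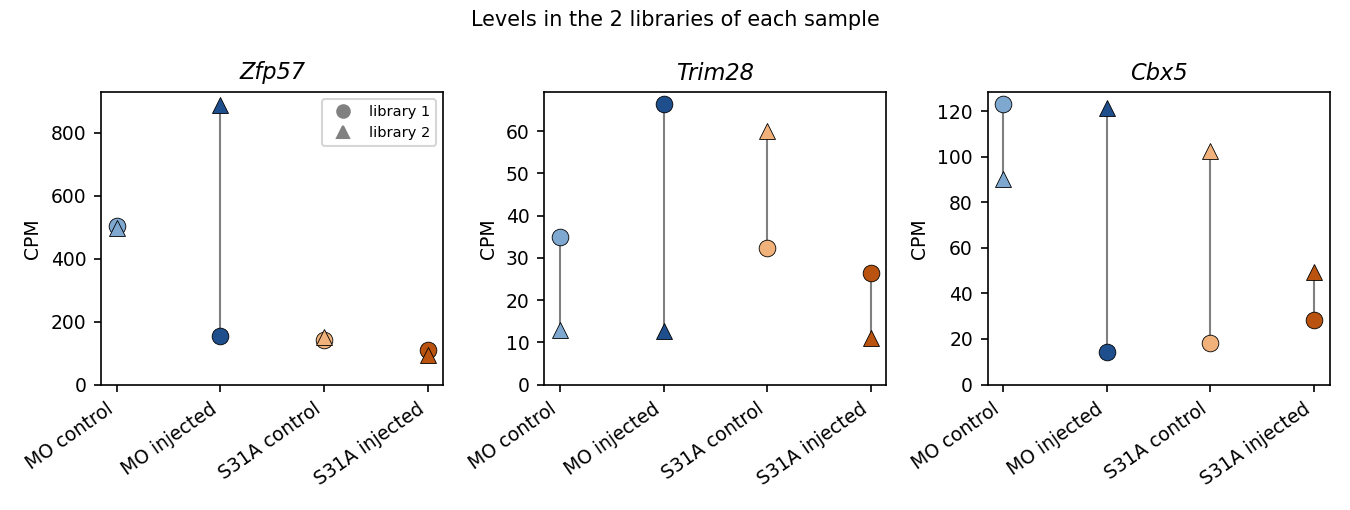
CPM of Zfp57, Trim28 and Cbx5 in library 1 (circle) and library 2 (triangle) of each of the 4 samples, joined by a line, on axes that start at 0. For Zfp57 the MO-injected libraries stand at 155 and 890 CPM around control libraries at 503 and 498 CPM.

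By median TPM the order of the 10 genes was Suv39h2 (134), Zfp57 (97.0), Cbx1 (87.7), Setdb1 (72.5), Ehmt1 (19.5), Cbx5 (19.0), Trim28 (16.8), Cbx3 (0.231) and then Ehmt2 and Suv39h1, both with a median of 0. Neighbours in this order overlapped in their range over libraries, except that Setdb1 lay above Ehmt1 and Trim28 above Cbx3 in all 8 libraries.

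None of the measured genes was 2-fold apart between the MO-injected sample and its control. A ratio of summed counts was taken where either sample reached 10 CPM, which 7 of the 10 genes did. Less RNA per zygote and fewer contributing zygotes cannot be told apart here. The count was 0 of 7 at least 2-fold apart, beside 23.8% of the 8110 genes measured, and 0 of 7 with libraries that did not overlap, beside 40.5% (19.2% with both libraries higher and 21.3% lower). The median log2 ratio of the 7 was -0.20 and that of all measured genes 0.03. Among the methyltransferases, Setdb1 was at -0.47 (exact 95% Clopper-Pearson interval of the counts -0.54 to -0.39), Suv39h2 at -0.30 (-0.36 to -0.24) and Ehmt1 at 0.24 (0.11 to 0.38). Cbx1 was at -0.20 (-0.29 to -0.12) and Cbx5 at -0.86 (-0.96 to -0.75). Trim28 was at 0.81 (0.64 to 0.99) and Zfp57 at -0.08 (-0.12 to -0.03). These intervals cover counting error only, and for 4 of the genes 1 library set the direction. Without MO-injected library 1 the ratio was 0.11 for Cbx5, -1.06 for Trim28, 0.80 for Zfp57 and -0.52 for Ehmt1. Without MO-injected library 2 it was -2.98 for Cbx5, 1.31 for Trim28 and -1.73 for Zfp57, so that 3 of 7 were then at least 2-fold apart. Without MO control library 1 Trim28 was at 1.82, and without MO control library 2 Cbx5 was at -1.02. Cbx3, which was under the filter, went from 16 to 4 counts, a log2 ratio of -1.99. With the counts of its copies added, the ratio of the sum was 0.31. Gm49164 held most of the added counts, so this does not give the direction of Cbx3 itself.

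With S31A injection, 1 of the 7 measured genes was at least 2-fold apart, beside 30.2% of the 8191 genes measured. This was Trim28, whose libraries of the injected sample (26.5 and 10.9 CPM) both lay below those of the control (32.2 and 59.96 CPM), 2.36-fold lower in the sums, with a log2 ratio of -1.24 (-1.41 to -1.08). Without S31A control library 2 the ratio was -0.67, and without S31A-injected library 2 it was -0.84, both short of 2-fold. Without S31A-injected library 1 it was -2.13, and without S31A control library 1 it was -1.57. Zfp57 was lower in both injected libraries, by 1.43-fold, at -0.52 (-0.60 to -0.44). Ehmt1 was higher in both, by 1.69-fold, at 0.76 (0.67 to 0.85). It was at 1.36 without S31A control library 1 and at 0.37 without S31A control library 2. Cbx1 was also higher in both, by 1.23-fold, at 0.30 (0.24 to 0.36). These 4 of 7 genes with libraries apart stand beside 39.5% of all measured genes.

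The other 3 measured genes had overlapping libraries in the S31A experiment. Setdb1 was at -0.02 (-0.08 to 0.03) and Suv39h2 at 0.17 (0.11 to 0.23), with either sign on leaving out single libraries (Setdb1 from -0.45 to 0.18, Suv39h2 from -0.25 to 0.84). Cbx5 was at -0.70 (-0.83 to -0.58), and at 1.10 without S31A control library 2. It was at -1.41 without S31A control library 1 and at -1.14 without S31A-injected library 2. Without S31A control library 2 (1.10) or S31A-injected library 2 (-1.14), Cbx5 was the 1 gene of 7 past 2-fold in place of Trim28. The median of the 7 was -0.02, beside 0.02 for all measured genes. Cbx3 went from 0 to 63 counts, which in CPM is 22.1-fold above a floor of 3 counts in the summed control. With counting error on the 63 counts as well, the exact Clopper-Pearson interval put the log2 ratio of Cbx3 at 4.12 or more. With the counts of its copies added, most of them in Gm49164, the log2 ratio of the sum was 0.91. Suv39h1 went from 94 to 0 counts, with all 94 counts in 1 control library. In CPM these 94 counts were 29.8-fold above a floor of 3 counts in the summed injected sample. With counting error on the 94 counts as well, the exact Clopper-Pearson interval put the log2 ratio of Suv39h1 at -4.57 or less.

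No gene of the 7 passed edgeR's quasi-likelihood test over libraries with Benjamini-Hochberg adjustment over all genes. The smallest adjusted p was 0.853 (Setdb1) with MO injection, 0.820 (Trim28) with S31A injection and 0.896 (Trim28) for the S31A ratio minus the MO ratio. In each of these 3 edgeR fits 0 of 7 had an unadjusted p under 0.05. DESeq2 called 0 of 7 in each as well, with 1 unadjusted p under 0.05, that of Zfp57 with S31A injection (0.0416, adjusted 0.249). For Trim28 the log2 ratio with S31A was lower than that with MO by an edgeR estimate of -2.03, with an unadjusted p of 0.163 in edgeR's test. Over all genes, edgeR called 0%, 0.0244% and 0.0334% in the 3 fits (0, 2 and 3 genes), and 5.17%, 6.08% and 6.38% had an unadjusted p under 0.05. DESeq2 called 0.666%, 7.04% and 1.63%, and 7.73%, 18% and 9.61% had an unadjusted p under 0.05. Such p-values describe only how far libraries of 1 sample spread, which may be technical. With MO injection edgeR also did not call H3f3b and H3f3a, which were 330-fold and 18.7-fold lower in the summed counts. DESeq2 called both. The lack of an edgeR call therefore does not show that a gene is unchanged.

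**Figure D4:**
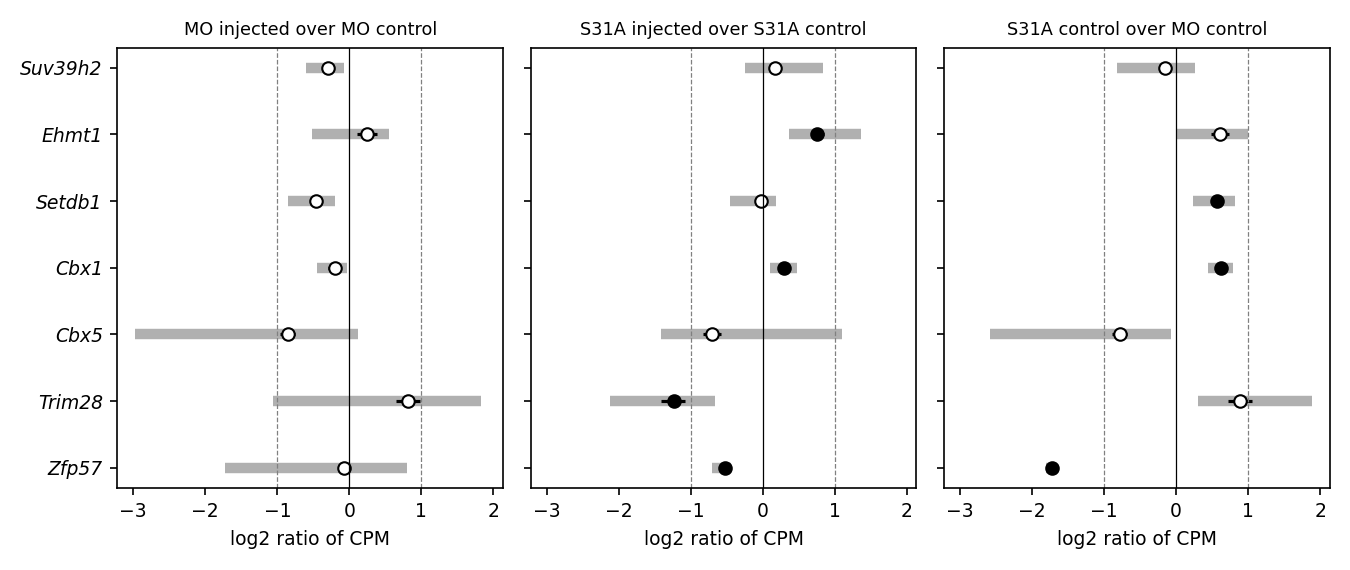
log2 ratio of CPM from summed counts for the 7 measured genes in the 3 comparisons, with short black bars for the exact 95% Clopper-Pearson interval of the counts, grey bars for the range on leaving out each library in turn and dashed lines at 2-fold. Filled points mark genes with both libraries of a sample on 1 side of both of the other: 0 of 7 with MO, 4 of 7 with S31A and 3 of 7 between controls.

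The 2 control samples differed in these genes as well. Zfp57 was 3.298-fold lower in the S31A control than in the MO control, with a log2 ratio of -1.72 (-1.78 to -1.66), which stayed between -1.80 and -1.72 on leaving out any 1 library. It was the 1 gene of 7 at least 2-fold apart, beside 29.8% of the 8266 genes measured. Cbx1 was higher in the S31A control in both libraries, at 0.62 (0.55 to 0.70), and so was Setdb1, at 0.57 (0.50 to 0.63). These 3 of 7 with libraries apart stand beside 46.4% of all measured genes, 21.2% higher and 25.2% lower. The libraries of the other 4 overlapped: Trim28 was at 0.88 (0.72 to 1.05), Ehmt1 at 0.61 (0.48 to 0.73), Suv39h2 at -0.16 (-0.22 to -0.10) and Cbx5 at -0.78 (-0.88 to -0.68). Trim28 was at 1.89 without MO control library 1, at 1.22 without S31A control library 1, and at 0.31 without S31A control library 2. Cbx5 was at -2.58 without S31A control library 2 and at -0.07 without S31A control library 1. Ehmt1 was at 0.0046 without S31A control library 1. Suv39h2 was at -0.82 without S31A control library 1, at 0.27 without S31A control library 2 and at 0.07 without MO control library 2. The S31A control libraries also had more counts on mitochondrially encoded genes (9.65% and 10.4%, against 5.55% and 5.23%) and fewer detected features (11372 and 11768, against 15156 and 14895). Their part in the gene differences was not tested, and the experiment and the control sample cannot be told apart.

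The partners of these factors form a list of 32 genes, among them the EHMT partners Wiz and Zfp644, the SETDB1 partner Atf7ip, the genes of the HUSH silencing complex, the chromodomain genes Cdyl and Cdyl2 and the H3.3 chaperone genes Atrx and Daxx. With MO injection 29 were measured, 2 of them at least 2-fold higher and 2 lower, beside 11.3% and 12.5% of all measured genes. In 4 of the 29 both injected libraries lay above both of the control and in 6 below, beside 19.2% and 21.3% of all measured genes. The list's median log2 ratio was -0.29, beside 0.03 for all. Atf7ip2, a paralogue of the SETDB1 partner, had 18.9 and 46.9 CPM in the control and 0 and 3.93 CPM in the injected sample, a log2 ratio of -4.08 (-4.69 to -3.67). Cdyl had 70.3 and 40.4 CPM in the control and 136 and 161 CPM in the injected sample, a log2 ratio of 1.38 (1.27 to 1.49). Cdyl2 was at -2.03 and Adnp2 at 1.003, both with overlapping libraries. The partners named here did not pass edgeR's test over libraries, and their intervals cover counting error only.

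With S31A injection 29 partners were measured, of which 9 were at least 2-fold higher and 5 lower, beside 14.1% and 16.1% of all measured genes. In 10 of them both injected libraries lay above both of the control and in 3 below, beside 19.8% of all genes in each direction. The list's median was 0.45, beside 0.02 for all measured genes. The injected libraries also had smaller shares of counts on mitochondrially encoded genes (7.13% and 9.59%, against 9.65% and 10.4%) and higher summed egg and zygote markers (15964 to 19650 CPM, against 14169 to 14503 CPM). Their part in the result was not tested. Morc2a, which encodes a MORC-family ATPase that works with HUSH, had 0.280 and 9.76 CPM in the control and 69.0 and 40.0 CPM in the injected sample, a log2 ratio of 3.42 (3.17 to 3.74). Wiz, whose protein binds the EHMT enzymes, had 17.6 and 5.28 CPM in the control and 60.5 and 34.9 CPM in the injected sample, at 2.12 (1.93 to 2.34). Prdm2, a PR-domain gene, had 51.6 and 19.2 CPM in the control and 10.1 and 7.28 CPM in the injected sample, at -1.96 (-2.21 to -1.74). Cdyl2 was at -1.87 with overlapping libraries. In edgeR's test the adjusted p of these 4 genes was 0.795 or more.

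Between the controls 28 partners were measured, 0 of them at least 2-fold higher in the S31A control and 9 lower, beside 13.6% and 16.2% of all measured genes. In 2 of the 28 both S31A control libraries lay above both MO control libraries and in 10 below, beside 21.2% and 25.2% of all measured genes. The median was -0.50, beside 0.05 for all measured genes. Adnp2 (-2.68), Senp7 (-2.22), Zfp644 (-2.07) and Atf7ip2 (-1.57) all had both S31A control libraries below both MO control libraries. For Adnp2 these were 15.98 and 5.45 CPM against 77.9 and 60.2 CPM, and with S31A injection it had 34.0 and 13.1 CPM. The S31A comparisons share their control sample with this one.

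The H3K9 demethylases, which remove the mark, were a list of 11 genes, of which 7 were measured in each experiment. With MO injection 1 of 7 was at least 2-fold higher and 1 lower, beside 11.3% and 12.5% of all measured genes. Kdm3b had 8.69 and 6.08 CPM in the control and 64.6 and 31.3 CPM in the injected sample, a log2 ratio of 2.77 (2.51 to 3.07). Phf2 had 19.1 and 4.77 CPM in the control and 3.14 and 4.15 CPM in the injected sample, at -1.83 (-2.26 to -1.48). Most of this gap came from control library 1. Phf8 was lower in both libraries at -0.56 (-0.64 to -0.49). Jmjd1c was at -0.86 with overlapping libraries. With S31A injection 0 of 7 were at least 2-fold higher and 1 lower, beside 14.1% and 16.1% of all measured genes. Jmjd1c had 4.67 and 29.4 CPM in the control and 1.45 and 0 CPM in the injected sample, at -4.27 (-5.22 to -3.73). Phf8 was lower in both libraries here too, at -0.94 (-1.01 to -0.87). Kdm1a at 0.32 and Kdm4a at 0.28 had overlapping libraries. The demethylases named with MO and with S31A injection did not pass edgeR's test over libraries, and their intervals cover counting error only. Between the controls 1 of 7 was at least 2-fold higher in the S31A control and 0 lower, beside 13.6% and 16.2% of all measured genes. Kdm3b was higher there in both libraries at 1.28 (0.99 to 1.60), Kdm4a at -0.89 and Kdm1a at -0.68 were lower in both, and Phf8 at 0.35 had overlapping libraries. The nearest libraries of the S31A and MO controls were 9.34 and 8.69 CPM for Kdm3b. For Kdm4a they were 11.5 and 12.2 CPM, and for Kdm1a 108 and 113 CPM. The medians were -0.09 with MO, -0.04 with S31A and 0.13 between controls, beside 0.03, 0.02 and 0.05 for all measured genes.

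**Figure D5:**
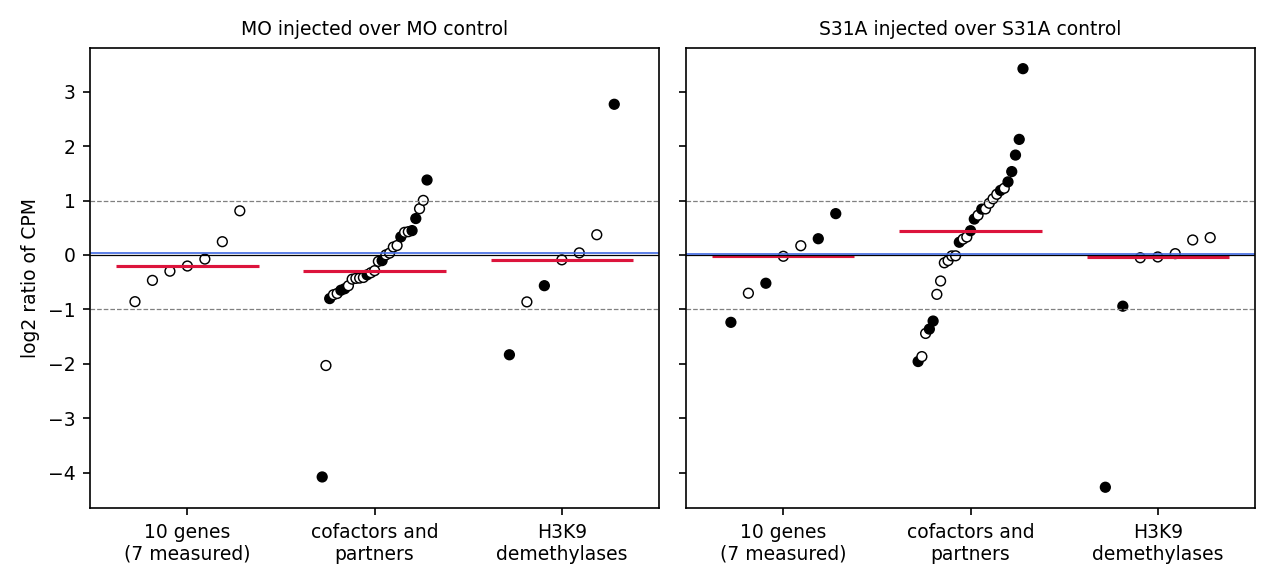
log2 ratio of CPM for each measured gene of the 3 lists (the 10 genes, of which 7 were measured, their partners, and the H3K9 demethylases) with MO injection (left) and S31A injection (right). Points are filled where the libraries of the 2 samples do not overlap, red lines are list medians, the blue line is the median of all measured genes, dashed lines are 2-fold, and the partners' median is -0.29 with MO and 0.45 with S31A.

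Across the 8 libraries, Pearson's r of log2(CPM + 1) was computed between each measured gene and 10515 other genes that reached 10 CPM in a library, as a description, since the libraries share samples and depth. The gene most like Cbx1 was Wdr82 (0.99), the gene most like Cbx5 was Anp32e (0.99), and that most like Setdb1 was Ndufb5 (0.98). For Zfp57 it was Pcnt (0.98), for Trim28 Mxd1 (0.97), for Suv39h2 Soat1 (0.97) and for Ehmt1 Taf9b (0.96). Among the 7 genes themselves, Ehmt1 and Cbx1 were the pair with the highest r, at 0.86, and Zfp57 ran against both, at -0.85 with Ehmt1 and -0.82 with Cbx1.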

How the data were processed

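The genes and gene lists were chosen with earlier results of these data known. Total RNA of zygotes was amplified as cDNA by PCR, per the labels' protocols. The submitters' processing notes name FastQC, Bowtie2, featureCounts, DESeq2 and the build mm10, with no versions. The annotation release, strand setting and treatment of reads with several matches are not given in the sources used here. Raw counts per gene were deposited by the authors, with gene lengths, for 55291 features in 8 columns, 2 per sample. In each of the 10 genes the deposited position equalled that in GENCODE M21.

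The counts of a sample's libraries were added and scaled with TMM factors (edgeR 4.0.16, R 4.3.3). Ratios are log2 ratios of CPM with a prior count of 2, taken where either sample reached 10 CPM. Groups of 1 sample allow no test between groups. edgeR's quasi-likelihood test and DESeq2 1.42.0 were run over libraries with Benjamini-Hochberg adjustment. The edgeR step was also run on simulated data whose spread was taken from these libraries. That run says nothing about the spread between separate samples. TPM used the deposited lengths. Intervals are exact 95% Clopper-Pearson intervals. They and the floor of 3 counts cover counting error only, since no molecular identifiers mark PCR copies. Copies were found with BLAST+ 2.17.0. All 10 genes were described, and up to 4 genes per list and comparison with the largest absolute log2 ratio were named, with copies at 50 or more counts in a library. Cbx3-ps6, Cbx3-ps7 and Cyp19a1, outside this rule, were chosen after their values were seen, and Gm14820 and Dclre1c as overlaps. Alternatives were other scalings, filters and prior counts, DESeq2, a replicate block and leaving out each library.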

Additional observations from a re-analysis of the deposited data

Results flagged for a closer look

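For Cbx3 the injected and control libraries lay apart in opposite directions in the 2 experiments, with 7 and 9 counts in the MO control against 4 and 0 in the MO-injected sample, and 0 and 0 counts in the S31A control against 30 and 33 in the S31A-injected sample. With the filter lowered to 1 CPM, edgeR estimated the S31A log2 ratio minus the MO log2 ratio at 10.69, with an unadjusted p of 0.0762 and an adjusted p of 0.821. This estimate rests on sums of 16, 4, 0 and 63 counts and depends on how groups at 0 are handled, so it gives no size. With the counts of its copies added, most of them in Gm49164, the log2 ratios of the sums were 0.31 with MO and 0.91 with S31A.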

How the results depend on the processing

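The count of genes at least 2-fold apart depended on the filter and on single libraries. With a filter of 1 CPM or none it was 2 in place of 0 with MO injection, 3 in place of 1 with S31A injection and 3 in place of 1 between controls, and with 50 CPM it was 0 with S31A injection. Leaving out each library in turn gave 1 to 3 with MO, 1 to 3 with S31A (3 without S31A control library 1) and 1 to 2 between controls. Of 84 ratios with 1 library left out, 74 kept their direction, and all 84 with another scaling or prior count did. The sum of Cbx3 and its copies, mostly Gm49164, had a ratio with MO of 0.31, in place of -1.99 for Cbx3 alone. Scaling by total counts alone moved the median of all genes with MO from 0.03 to -0.09 and the share of higher among 2-fold genes from 47.3% to 36.2%.

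edgeR and DESeq2 called 0 of the tested genes of H3K9 methylation and heterochromatin, partners and demethylases apart, in every alternative run. For edgeR these runs took in a filter of 1 or 50 CPM, total counts alone and the library number as a replicate block. With the replicate block the counts called among these genes were 0, 0 and 0, beside 0, 0 and 3 of all genes. The library numbers did not pair the samples, with a correlation of deviations of 0.06 (MO) and 0.01 (S31A). By CPM in place of TPM, Setdb1 stood above Zfp57 and Cbx1, and Cbx5 above Ehmt1. The likeness of Trim28 and Mxd1 was 0.87 over the 4 summed samples.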
